A study of Mus musculus with 12 samples.

Results

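The comparison of DMD-Null with mdx tibialis anterior asks what the loss of every product of the dystrophin gene changes in a muscle that already lacks full-length dystrophin. Its members were the 4 DMD-Null and the 4 mdx libraries, 8 of the 12 in the series, and they were chosen by the genotype in their labels. The tissue was the tibialis anterior, which lifts the foot and consists mostly of fast fibres, taken from naive mice at 6 months of age, and its poly(A) RNA was sequenced. The mdx allele is the standard mouse model of Duchenne muscular dystrophy, a nonsense mutation that stops full-length dystrophin and leaves the shorter products of the gene readable. The name DMD-Null states a loss of the whole gene's function. How that allele was made, the strain background and the sex of the mice are not stated. Replicates are numbered, with nothing to say that each came from a separate animal. A p-value, an interval or an excluded difference thus rests on the spread of these 4 against 4 samples, which may be technical. Both groups lack full-length dystrophin, so neither is a healthy control for the other.

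Dmd is among the longest genes known, and it carries several promoters. The upstream promoters give full-length dystrophin, which ties the actin cytoskeleton of the fibre to the dystroglycan and sarcoglycan complex in the membrane and through it to laminin outside. Promoters further inside the gene give shorter proteins such as Dp71, which keep the end that binds dystroglycan and are made in many tissues. Without the complex, fibres tear during contraction, and satellite cells, the stem cells of muscle, rebuild them in repeated cycles that draw in macrophages and fibroblasts.

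Dmd lies on chromosome X from 82948870 to 85206141 on the plus strand (GRCm38, ENSMUSG00000045103), an interval of 2257 kb. The counts are for the whole gene and do not tell its products apart. RefSeq sequences of the 250 bases before a start site (build GRCm38.p6, plus strand) are shown for 2 starts of Dmd and for 1 start of Capn3, since Dmd is the gene that separates the genotypes and Capn3 was the single gene called higher in DMD-Null. The first Dmd window is chrX:82948620-82948869, which ends just before the first base of the gene, and the second is chrX:85048045-85048294, in the last part of the gene, from which short products are read. The Capn3 window is chr2:120463343-120463592, whose last bases lie inside the gene as the deposited table places it. Capitals mark matches on either strand to TATAAA, to CAGCTG (an E box, the kind of site that MyoD-type factors can bind), to GGGCGG (a GC box) or to the CArG box, the element known to bind serum response factor.
Dmd, upstream start: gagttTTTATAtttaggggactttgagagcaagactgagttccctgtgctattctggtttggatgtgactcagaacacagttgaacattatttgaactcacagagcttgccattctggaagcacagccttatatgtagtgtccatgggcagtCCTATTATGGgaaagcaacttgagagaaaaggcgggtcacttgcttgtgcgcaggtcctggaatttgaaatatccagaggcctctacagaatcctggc
Dmd, internal start: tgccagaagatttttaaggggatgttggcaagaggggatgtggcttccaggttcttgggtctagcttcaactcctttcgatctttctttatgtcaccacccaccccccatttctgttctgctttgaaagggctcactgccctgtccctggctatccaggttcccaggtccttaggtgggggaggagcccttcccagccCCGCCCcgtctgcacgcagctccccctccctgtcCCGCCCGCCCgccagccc
Capn3: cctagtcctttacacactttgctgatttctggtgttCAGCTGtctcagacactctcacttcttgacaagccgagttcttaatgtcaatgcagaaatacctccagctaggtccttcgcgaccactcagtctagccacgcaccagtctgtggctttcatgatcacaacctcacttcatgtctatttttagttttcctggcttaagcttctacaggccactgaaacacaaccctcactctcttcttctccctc
The upstream Dmd window held a TATAAA match 245 bases before the start and a CArG match 98 bases before it, counted from the first base of each match. The internal Dmd window held 3 GC boxes, 52, 18 and 14 bases before the start, and those at 18 and 14 share bases. The Capn3 window held 1 E box, 214 bases before the start. The window before another RefSeq start of Capn3, at 120476909 and not shown, held no match to any of these motifs. The gene-level counts do not tell which start was used. Among 32851 RefSeq promoters of the same length, 12.4% held TATAAA, 1.47% a CArG box, 32.7% a GC box and 13% an E box. A match describes the letters only.

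Total counts were 60693078 to 64554184 in DMD-Null and 64120795 to 68054627 in mdx, and 22436 to 23152 genes had reads. DMD-Null libraries were less alike than mdx libraries, with correlations of log2 CPM (a gene's count over the library total, times 1e+06) across genes of 0.950 to 0.978 in DMD-Null, 0.979 to 0.986 in mdx and 0.959 to 0.985 between the groups. DMD-Null 2 stood apart on the first principal component, which held 29.0% of the variance, and DMD-Null 4 on the second, which held 23.6%. DMD-Null 4 also leaned towards GC-rich genes. Across genes, Spearman's rho of GC content with the library's level relative to the mean of the 8 was 0.589 there and -0.38 to 0.14 elsewhere. The SD of log2 CPM was larger in DMD-Null for 10060 of 14229 genes (70.7%). No 2 libraries of a group differed by as little as sampling noise, since the chi-square of their counts over genes was at least 37.9 per degree of freedom. The Y-linked genes Ddx3y, Uty, Kdm5d and Eif2s3y had reads in all 8 libraries. The tests are also given without DMD-Null 2 and DMD-Null 4. All 19 fast-fibre and all 15 slow-fibre markers passed the filter on low counts. All 25 liver markers passed too, so passing the filter does not identify the tissue. Over the 8 libraries, summed CPM was 132500 to 181800 for the fast-fibre markers and 101.5 to 381.5 for the liver markers.

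Few genes separated the genotypes. Of 14229 genes with at least 1 CPM in at least 4 of the 8 libraries, 7 passed edgeR's quasi-likelihood test at a Benjamini-Hochberg adjusted p of 0.05, which is 0.0492% of the genes tested. Of these, 6 were lower in DMD-Null (0.0422%) and 1 was higher (0.00703%). Those lower were Dmd, the lung-typical genes Sftpc, Sftpb, Sftpa1 and Scgb1a1, and the mitochondrial tRNA gene mt-Tg. The gene that was higher was Capn3. In all, 448 genes (3.15%) had an unadjusted p under 0.05, and 304 genes (2.14%) had no overlap between the groups, 130 of them higher (0.914%) and 174 lower (1.22%) in DMD-Null. Without DMD-Null 2 and DMD-Null 4, 9 genes were called, among them all 7.

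**Figure D1:**
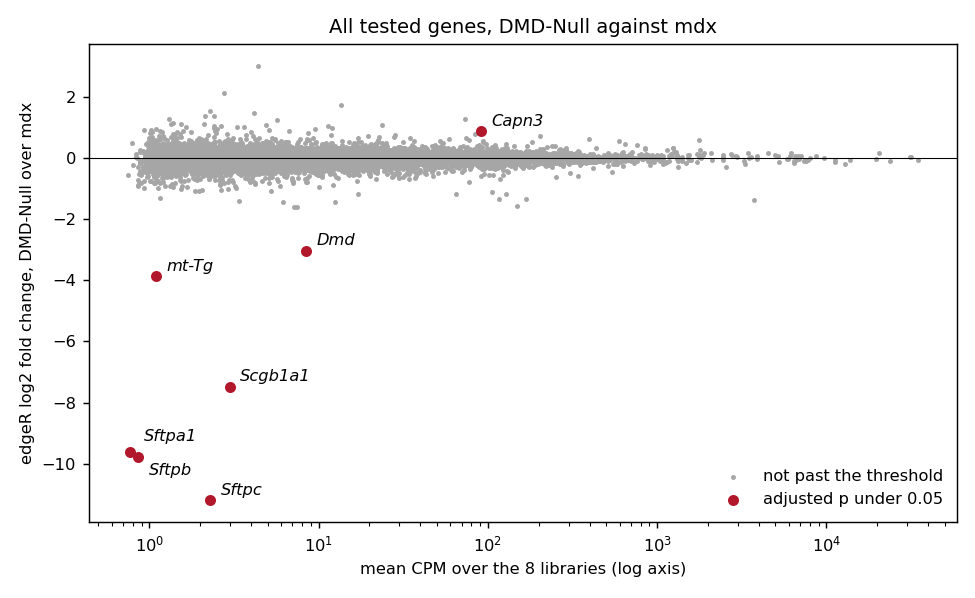
Each point is 1 of the 14229 tested genes, with its mean CPM over the 8 libraries on a log axis and its edgeR log2 fold change, DMD-Null over mdx, on the vertical axis. The 7 genes past the threshold are red and named: 6 lie below 0 and Capn3 lies above it, while the grey points crowd around 0.

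Dmd itself was low in all 4 DMD-Null libraries. Its counts were 164, 71, 111 and 114 in DMD-Null 1 to 4, against 1062, 713, 869 and 1254 in mdx 1 to 4. Every DMD-Null library thus lay below every mdx library. In TMM-scaled CPM the means were 1.83 ± 0.632 (SD, n = 4) and 14.9 ± 3.40 (n = 4), so that DMD-Null kept 12.2% of the mdx level. The log2 fold change was -3.03 with an SE of 0.26 (edgeR adjusted p = 0.000994), and the limma voom 95% interval ran from -3.68 to -2.47. An exact two-sided permutation test of the 4 against 4 CPM values gave p = 0.0286, the smallest that 70 arrangements allow. Reads remained at Dmd in each DMD-Null library, and the gene-level counts do not say to which part of the gene they belong. With all 12 libraries in the model, WT included, the log2 fold change was -3.01 and the adjusted p was 0.237.

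No difference was called at the genes around Dmd. Inside the gene's interval the table lists Tsga8, Gm22580 and Gm14769. Their counts were 0 in every DMD-Null library and at most 4 in any mdx library, too few for a test. The nearest tested genes were Actr3-ps, Tmem47 and Gm5940 at 1130 to 2490 kb before Dmd, and Tab3 and Gk at 368 and 496 kb after it. Their log2 fold changes were -0.11 to 0.0082, none was called, and the widest 95% interval among them reached a 1.71-fold difference. The directions of Gk and Actr3-ps turned with the scaling or the tool.

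Utrn encodes utrophin, the dystrophin relative that can take dystrophin's place at the membrane. Its CPM values were 26.9, 26.6, 24.2 and 23.6 in DMD-Null 1 to 4 and 31.6, 26.3, 25.3 and 31.4 in mdx 1 to 4, with means of 25.3 ± 1.70 and 28.6 ± 3.33. The groups overlapped. The log2 fold change was -0.18 (edgeR adjusted p = 1), and its 95% interval, from -0.41 to 0.07, excluded any difference above 1.33-fold.

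The other members of the dystrophin complex were close in the 2 genotypes. Of 27 genes on the list, 24 passed the filter, 1 was called (Dmd, lower), and Sgcz, Sntg1 and Sntg2 were too low to test. The median log2 fold change was 0.04, against -0.01 over all genes tested. For 23 of the 24 a 2-fold difference was excluded by an equivalence test (2 one-sided limma tests per gene, adjusted over all genes), and for 19 a 1.5-fold difference was. Over all genes these shares were 95.5% and 73.4%. The equivalence test is less strict than the 95% interval, which can reach past a fold that the test excluded. The exception at 2-fold was Dmd.

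Among the structural members, Dag1, which encodes dystroglycan, had 292 ± 38.2 CPM in DMD-Null and 283 ± 25.3 in mdx. Its interval excluded more than a 1.22-fold difference. The sarcoglycans Sgca, Sgcb and Sgcd, whose loss causes limb-girdle dystrophies, had log2 fold changes of 0.06, -0.01 and 0.05, and intervals that reached 1.29-fold, 1.24-fold and 1.44-fold. Sspn (sarcospan, a membrane partner of the sarcoglycans) reached 1.23-fold and Lama2 (a laminin chain outside the fibre) 1.28-fold. The cytoplasmic adaptor Dtna (dystrobrevin) reached 1.19-fold. Sntb1, a syntrophin, had the widest interval of the list, reaching 1.82-fold, and its CPM in DMD-Null 4 was 3.75 against 10.37 to 10.97 in the other DMD-Null libraries. The interval of Aqp4, also on the list, was narrower but reached slightly further, to 1.84-fold (log2 fold change -0.22, groups overlapping).

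Nos1, the neuronal nitric oxide synthase that dystrophin anchors at the membrane, was 149, 100.7, 95.5 and 155 CPM in DMD-Null 1 to 4 and 96.7, 76.3, 95.8 and 108 in mdx 1 to 4. DMD-Null 1 and DMD-Null 4 lay above every mdx library, the other 2 did not, and the log2 fold change was 0.41 (edgeR adjusted p = 1, unadjusted p = 0.0397). Dysf, the membrane repair protein dysferlin, had a log2 fold change of 0.32 (adjusted p = 1). Mark2 encodes a polarity kinase that dystrophin binds in satellite cells. All 4 of its DMD-Null values (43.0 to 46.4 CPM) lay above all 4 of its mdx values (38.1 to 42.2), with a log2 fold change of 0.15 that did not pass (unadjusted p = 0.0824). Its interval ended at 1.26-fold.

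**Figure D2:**
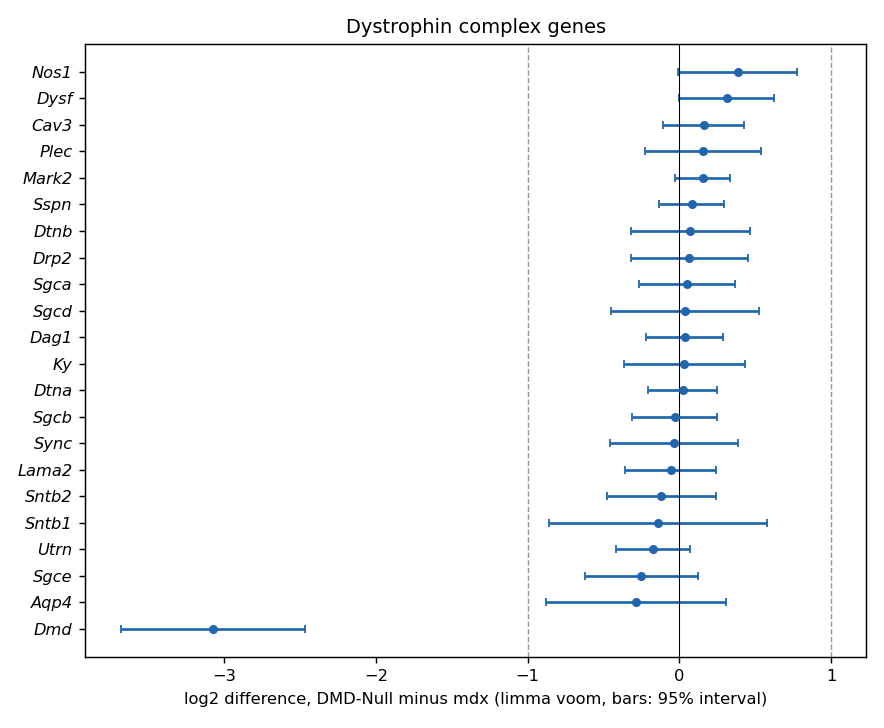
Log2 difference, DMD-Null minus mdx, for 22 of the 24 tested genes of the dystrophin complex list, with limma voom 95% intervals as bars. Dmd lies from -3.68 to -2.47, and every other interval shown stays between the dashed lines that mark a 2-fold difference.

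Capn3 encodes calpain 3, a muscle protease bound to titin whose loss causes a limb-girdle dystrophy. The gene (ENSMUSG00000079110, chromosome 2 from 120463572 to 120504918, plus strand) had counts of 7577, 6642, 7128 and 8324 in DMD-Null 1 to 4 and 4176, 4239, 3879 and 4388 in mdx 1 to 4. The groups did not overlap, at 118 ± 16.7 and 64.2 ± 4.28 CPM (SD, n = 4 each), a ratio of 1.83. The log2 fold change was 0.87 with an SE of 0.11 (edgeR adjusted p = 0.0203), and the 95% interval ran from 1.54-fold to 2.16-fold. The size kept between 0.77 and 0.94 (log2) under every alternative tried, but the call did not. The adjusted p was 0.0874 with no filter on low counts, 0.0593 with a mean CPM of at least 5, 0.116 with all 12 libraries in the model, 0.145 without DMD-Null 1, and 0.102 to 0.151 without any 1 of the mdx libraries. The unnamed gene AL935121 overlaps Capn3 on the same strand, with 102 to 139 counts in DMD-Null and 94 to 382 in mdx. With both summed, the log2 fold change was 0.81 (adjusted p = 0.0518).

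No other gene was called higher. The 4 next by p among those higher in DMD-Null were Map3k6, Arrdc2, Parm1 and Gm10638. Each was free of overlap between the groups, as were 2.14% of all genes. They were picked for their small p, which favours separate groups, so the lack of overlap adds no support. Arrdc2, a member of the arrestin domain family, was 100, 107, 65.2 and 144 CPM in DMD-Null 1 to 4 and 25.9, 51.8, 53.7 and 41.2 in mdx 1 to 4 (log2 fold change 1.27, SE 0.26, edgeR adjusted p = 0.686). Map3k6, a stress-activated kinase, was 14.8 ± 1.91 against 8.88 ± 1.38 CPM (log2 fold change 0.73, adjusted p = 0.572). DESeq2 called both, with adjusted p = 0.000381 for Arrdc2 and 0.00751 for Map3k6, while the other alternatives gave 0.154 to 1 and 0.187 to 1. Parm1 and Gm10638 had log2 fold changes of 0.50 and 0.88 (both adjusted p = 1).

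**Figure D3:**
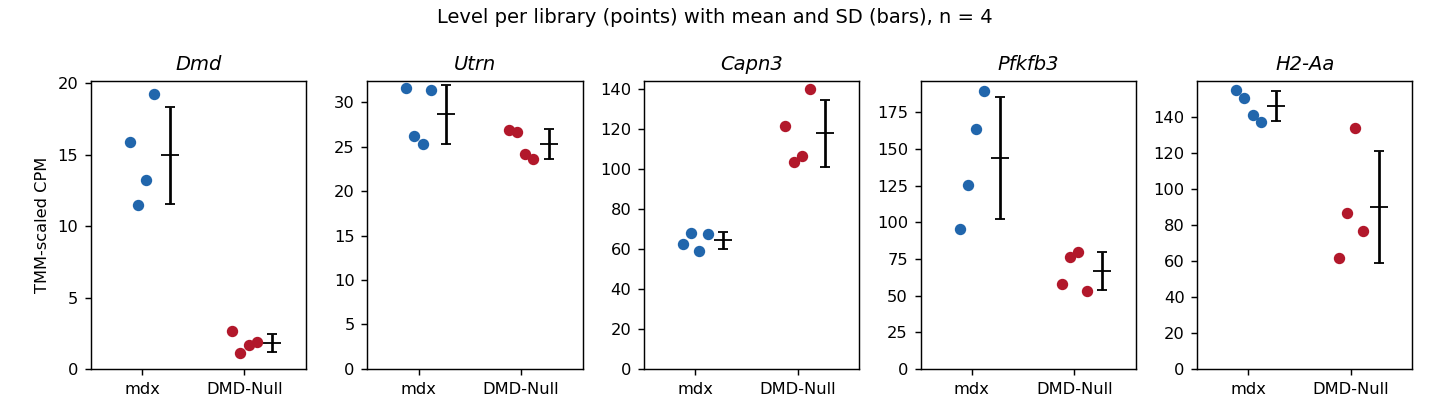
TMM-scaled CPM in each library (points) with mean and SD (bars, n = 4) for Dmd, Utrn, Capn3, Pfkfb3 and H2-Aa. All 4 DMD-Null points lie below the mdx points for Dmd, Pfkfb3 and H2-Aa and above them for Capn3, and the groups overlap for Utrn; of the 5, edgeR called Dmd and Capn3.

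The 4 genes besides Dmd and mt-Tg that were lower in DMD-Null are typical of lung. Sftpc, Sftpb and Sftpa1 encode surfactant proteins of lung alveoli and Scgb1a1 the secretoglobin of airway club cells. Sftpc counts were 297, 258, 348 and 285 in mdx 1 to 4 and 0 in each DMD-Null library, at least 381.5-fold higher in mdx when 3 counts over the DMD-Null group are taken as the floor (edgeR adjusted p = 0.000168). Sftpb and Sftpa1 were also at 0 in each DMD-Null library, and were at least 142.6-fold and 127.5-fold higher in mdx by the same floor. Scgb1a1 had 379, 289, 406 and 471 counts in mdx and 0, 0, 8 and 0 in DMD-Null (adjusted p = 0.000994). All 4 passed the filter on low counts only through the mdx libraries, where they were high, so among tested genes they had to differ. Of 14 lung markers in the table, 7 were at 0 in all DMD-Null libraries and none in all mdx libraries, and 6 passed the filter. The summed unscaled CPM of the 14 was 5.20 to 9.51 in DMD-Null and 22.6 to 26.8 in mdx. These reads moved with the genotype labels in all 8 libraries, and their part in the other results was not tested.

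The gene mt-Tg encodes the mitochondrial tRNA for glycine (mitochondrial genome from 9391 to 9458). Its counts were 9, 2, 18 and 6 in DMD-Null 1 to 4 and 116, 168, 141 and 104 in mdx 1 to 4. The groups were separate, with a log2 fold change of -3.88 (SE 0.45, adjusted p = 0.0101). Like the lung-typical genes, it passed the filter only through the mdx libraries. Its neighbours mt-Co3 and mt-Nd3, which encode subunits of the respiratory chain, were not called. The 13 protein-coding genes of the mitochondrial genome had a median log2 fold change of -0.07, and 2-fold was excluded for all 13. The call at mt-Tg was lost with no filter (adjusted p = 0.0827), with all 12 libraries (0.790), without DMD-Null 1 (0.0742) and without DMD-Null 4 (0.0680).

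Regeneration genes mostly had lower means in DMD-Null, and none passed the test. The list of regeneration and embryonic fibre genes had 30 members, all tested, none called, 8 above 0 (of all genes 48.2% were), and a median log2 fold change of -0.26. No overlap between the groups was seen for 3 of them (10%, against 2.14% of all genes), and a 2-fold difference was excluded for 26. The median of the regeneration and embryonic fibre list was -0.34 without DMD-Null 2 and DMD-Null 4, and -0.34 to -0.17 when each library was left out in turn. In tissue RNA of this kind, fewer cells of a type and less RNA per cell cannot be told apart.

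Among its members, Myh3, the embryonic myosin heavy chain that marks new fibres, was 49.8, 73.5, 94.0 and 93.0 CPM in DMD-Null 1 to 4 and 106, 116, 95.9 and 132 in mdx 1 to 4. The highest DMD-Null value was just below the lowest mdx value, and the log2 fold change was -0.53 (edgeR adjusted p = 1, unadjusted p = 0.0165). The fusion genes Mymk (myomaker) and Mymx (myomerger) had log2 fold changes of -0.58 and -0.83, and their intervals reached a 2.21-fold and a 3.26-fold difference, and 2-fold was excluded for neither. Cdkn1c, the cell cycle inhibitor p57 of differentiating myoblasts, was 26.4 ± 3.21 against 38.7 ± 8.17 CPM with no overlap (log2 fold change -0.55, unadjusted p = 0.0039). Myod1 and Myog, the myogenic factors of early and late differentiation, had log2 fold changes of 0.23 and -0.36 (both adjusted p = 1). Csrp3, the muscle LIM protein, lay the other way at 0.56 (adjusted p = 1).

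No satellite cell gene was called. Pax7, the transcription factor that defines these cells, was 2.69, 3.84, 3.83 and 4.6 CPM in DMD-Null 1 to 4 and 4.16, 2.33, 3.47 and 3.18 in mdx 1 to 4. The groups overlapped, and the interval of the log2 fold change (0.19) excluded more than a 1.6-fold difference. Of the 25 listed genes 23 were tested, and 2-fold was excluded for 22 (95.7%, against 95.5% of all genes) and 1.5-fold for 14 (60.9%, against 73.4%). The median was -0.04. Spry1, an inhibitor of growth factor signalling that keeps satellite cells quiescent, was the 1 member without overlap (2.14% of all genes had none), at 34.1 ± 3.62 CPM in DMD-Null and 44.5 ± 4.04 in mdx (log2 fold change -0.39, unadjusted p = 0.0044, adjusted p = 1). Cxcr4, a chemokine receptor, was the exception at 2-fold (log2 fold change -0.57, interval to 2.45-fold). Itga7 had the highest value of the list, at 251 ± 62.2 CPM in DMD-Null and 197 ± 17.9 in mdx with overlap (log2 fold change 0.35, edgeR unadjusted p = 0.0546).

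Polarity genes direct the asymmetric division of satellite cells. Of 22 listed, 20 were tested and none was called, and 2-fold was excluded for all 20 and 1.5-fold for 14. Pard3, the scaffold of the apical polarity complex, had 31.0 ± 2.33 CPM in DMD-Null and 31.9 ± 2.74 in mdx, with an interval that excluded more than 1.2-fold. Gpsm2, which orients the mitotic spindle, was 5.36 to 6.33 CPM in DMD-Null and 6.19 to 8.32 in mdx (log2 fold change -0.35, unadjusted p = 0.0268, adjusted p = 1). Whole-muscle RNA holds few satellite cells, so these intervals bound the tissue level and not the level per satellite cell.

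Extracellular matrix genes, the readout of fibrosis, gave no call among 33 tested, and 2-fold was excluded for 31, with a median log2 fold change of 0.07 that was -0.08 without DMD-Null 4. Col3a1, a fibrillar collagen, was 1116, 1638, 1407 and 1312 CPM in DMD-Null 1 to 4 and 1597, 1176, 1450 and 1532 in mdx 1 to 4, and its interval ended at 1.3-fold. Col1a1 ended at 1.34-fold. Ccn2, the connective tissue growth factor, was 41.1 ± 4.67 CPM in DMD-Null and 30.5 ± 2.85 in mdx with no overlap (log2 fold change 0.43, unadjusted p = 0.00268, adjusted p = 1). Mmp14, a membrane-bound matrix protease, had a log2 fold change of -0.35 (adjusted p = 1). For Spp1 (osteopontin) and Timp1 (a protease inhibitor) the spread was too wide to exclude 2-fold. The 15 markers of fibro-adipogenic progenitors, the fibroblast precursors of muscle, had a median of 0.02 and 2-fold was excluded for all 15.

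Macrophage and antigen presentation genes mostly had values below 0, with none past the test. Of 30 macrophage genes 5 were above 0 (16.7%, against 48.2% of all genes), and the median log2 fold change was -0.17. A 2-fold difference was excluded for 26 (86.7%, against 95.5% of all genes) and a 1.5-fold difference for 6 (20%, against 73.4%). The median of the macrophage list was -0.01 without DMD-Null 1 and -0.33 without DMD-Null 3. Ctss, a lysosomal protease, was 70.7, 118, 131 and 78.9 CPM in DMD-Null 1 to 4 and 139, 143, 151 and 148 in mdx 1 to 4. The mdx libraries lay close together and DMD-Null 1 and 4 lay far below them (log2 fold change -0.54, unadjusted p = 0.0116, adjusted p = 1). Clec7a, a receptor for fungal glucans on myeloid cells, had a log2 fold change of -0.96 and no overlap (unadjusted p = 0.00476). Ctss and Clec7a were the 2 members without overlap (6.67%, against 2.14% of all genes). The general macrophage genes Cd68, Lgals3 and Adgre1 had values of -0.04, -0.00096 and -0.28.

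All 14 antigen presentation genes had a log2 fold change below 0, with a median of -0.35 against -0.01 for all genes, and 3 showed no overlap (21.4%, against 2.14% of all genes). The median of the antigen presentation list stayed between -0.44 and -0.27 when each library was left out in turn. H2-Aa, a class II histocompatibility chain, was 61.7, 86.9, 134 and 76.5 CPM in DMD-Null 1 to 4 and 155, 151, 141 and 137 in mdx 1 to 4. DMD-Null 3 came close to mdx and the other 3 did not. The log2 fold change was -0.70 (adjusted p = 1), and without DMD-Null 3 it was -0.96 and passed (adjusted p = 0.0384), while the other alternatives gave 0.221 to 1. Cd74, the chain that guides class II assembly, was 271 ± 76.9 against 413 ± 42.8 CPM (log2 fold change -0.61, adjusted p = 1). Most T and B cell markers were too low to test, with 4 of 19 tested, and so were most granulocyte markers, with 4 of 12. A 2-fold difference was excluded for 3 of the 4 tested T and B cell genes and for 2 of the 4 tested granulocyte genes. None of the 4 T and B cell genes was above 0. Ighm, 1 of them, was 21.5 ± 8.64 CPM in DMD-Null and 32.8 ± 7.65 in mdx with overlap (log2 fold change -0.61, edgeR unadjusted p = 0.0375). The lung-typical reads described above were also lower in the DMD-Null libraries, and their part here was not tested.

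Energy metabolism gave narrow limits. Of 73 tested nuclear genes of oxidative phosphorylation none was called or free of overlap, the median log2 fold change was 0.01, and even a 1.5-fold difference was excluded for all 73. The same held for all 45 ribosomal protein genes tested, with a median of 0.06. For fatty acid oxidation, 2-fold was excluded for 25 of 26 genes, all but Pdk4, and 1.5-fold for 22.

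In glycolysis 2-fold was excluded for 18 of 20 genes, all but Pfkfb3 and Fbp2. Pfkfb3, which makes the activator of phosphofructokinase, was 57.9, 76.6, 79.5 and 53.4 CPM in DMD-Null 1 to 4 and 95.3, 125, 164 and 190 in mdx 1 to 4. Every mdx library was above every DMD-Null library, the log2 fold change was -1.1 (SE 0.21, edgeR adjusted p = 0.539), and DESeq2 called it. Fbp2, the muscle fructose bisphosphatase that works in the opposite direction, was 24.5 ± 2.0 against 14.8 ± 4.67 CPM without overlap (log2 fold change 0.72, unadjusted p = 0.00302, adjusted p = 1).

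Slow-fibre genes were bounded less closely than fast-fibre genes. For all 19 fast-fibre genes 2-fold was excluded, and for 17 1.5-fold was. For the 15 slow-fibre genes the numbers were 10 and 4. Myl3, a slow myosin light chain, was 19.01, 6.28, 6.43 and 18.4 CPM in DMD-Null 1 to 4 and 5.52, 10.03, 4.68 and 5.56 in mdx 1 to 4. DMD-Null 1 and 4 were high and DMD-Null 2 and 3 lay within the mdx range, so the log2 fold change of 0.96 (adjusted p = 1) left an interval that reached 3.34-fold. Tendon markers were similarly loose, with 2-fold excluded for 5 of 9, and so were liver markers (3 of 25), whose main gene Alb had 8 counts in DMD-Null 2 and 2482 to 6782 in the other 7 libraries.

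Other programs known in dystrophic muscle gave no call either. For neuromuscular junction and denervation genes 2-fold was excluded for 19 of 20, the exception being Chrng, the embryonic acetylcholine receptor subunit (log2 fold change -0.62, interval to 2.38-fold). For calcium handling it was 19 of 20, with Mrln (myoregulin, an inhibitor of the calcium pump) at -0.80 as the exception. For atrophy genes it was 13 of 14, and their median log2 fold change was -0.18 with 1 of 14 above 0, against 48.2% of all genes. That 1 was Foxo1, a transcription factor of muscle wasting, which was also the 1 member without overlap (2.14% of all genes had none), at 21.3 ± 3.61 against 16.1 ± 1.1 CPM (log2 fold change 0.40, adjusted p = 1). None of the 7 tested erythroid genes was called, and Hba-a1, a hemoglobin gene of red blood cells, had a log2 fold change of -1.35 (unadjusted p = 0.00456, adjusted p = 1). That value rested partly on mdx 1, at 476 CPM against 118 to 188 in the other mdx libraries and 62.0 to 113 in DMD-Null, and reads of near-identical globin genes could not be assigned with certainty. The median of the erythroid list was -1.17, and -0.57 without mdx 1.

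**Figure D4:**
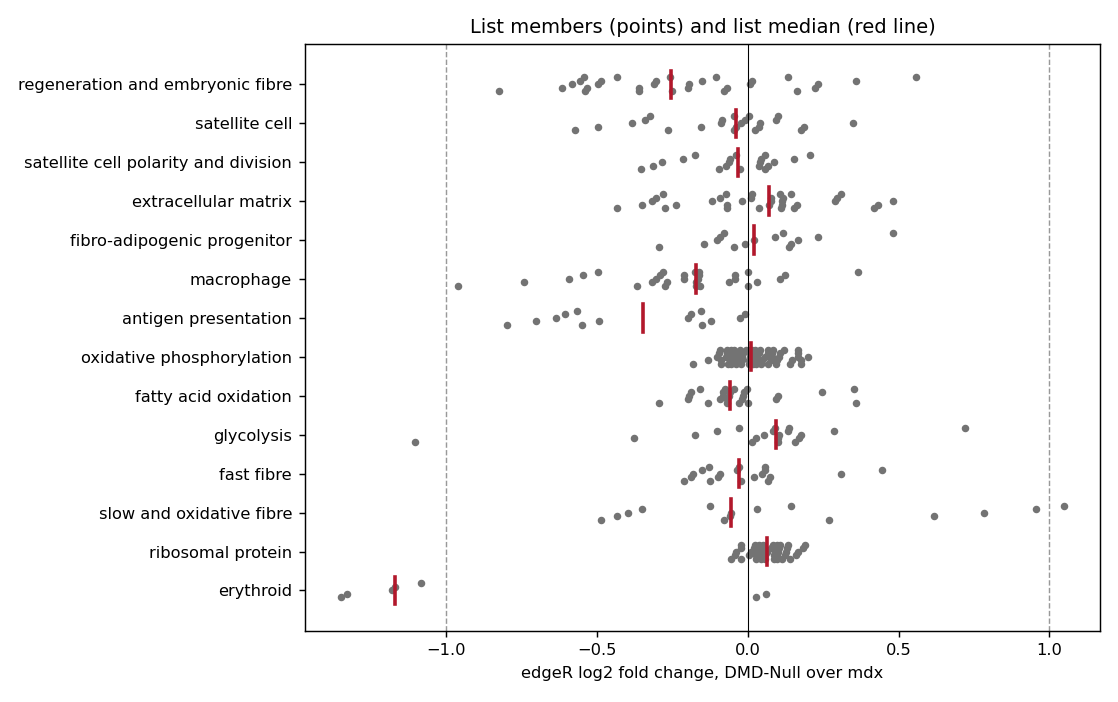
Each point is the edgeR log2 fold change, DMD-Null over mdx, of 1 tested gene of the list named at the left, and the red line is the list's median. Oxidative phosphorylation (median 0.01) and ribosomal protein genes (0.06) form tight groups at 0. Regeneration (-0.26), macrophage (-0.17) and antigen presentation genes (-0.35) have medians to the left of 0. Points run from -1.10 to 0.72 for glycolysis, from -0.49 to 1.05 for slow fibre and from -1.35 to 0.06 for the erythroid list.

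Over all genes, the equivalence test excluded a difference larger than 2-fold between DMD-Null and mdx for 13593 of 14229 (95.5%). It excluded one larger than 1.5-fold for 10449 (73.4%). With all 12 libraries in the model, WT included, the 1.5-fold count was 4840. The half-width of the 95% interval had a median of 0.34 on the log2 scale, a factor of 1.27, with quartiles of 0.26 and 0.47. The median gene was thus bounded to within 1.37-fold. The interval lay within 2-fold for 93.5% of genes and within 1.5-fold for 68.1%, fewer than the equivalence test excluded. It lay within 1.4-fold for 55% of genes and within 1.25-fold for 21.6%. At 3-fold it lay within for 98.1%.

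The limit depended on the level of the gene. Below 3 CPM (2448 genes) 2-fold was excluded for 84.6% and 1.5-fold for 27.8%. Between 3 and 10 CPM the shares were 95.1% and 68.1%, and between 10 and 30 CPM they were 98.7% and 86.2%. Above 100 CPM (1285 genes) they were 99.1% and 91.6%, about the same as between 30 and 100 CPM (99.1% and 91.9%), with no further gain from the higher level. With 629 genes (4.42%) the data allowed neither statement, as the gene was not called and 2-fold was not excluded. Estimated differences were small throughout, with a median absolute log2 fold change of 0.10, and 49 genes were beyond 2-fold in the estimate. The limits rest on the spread among these samples. If that spread is technical, they bound the difference between these samples and not between animals of the 2 genotypes. They concern transcripts in whole tibialis anterior at this age, and the 16010 genes below the filter are not bounded by them.

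**Figure D5:**
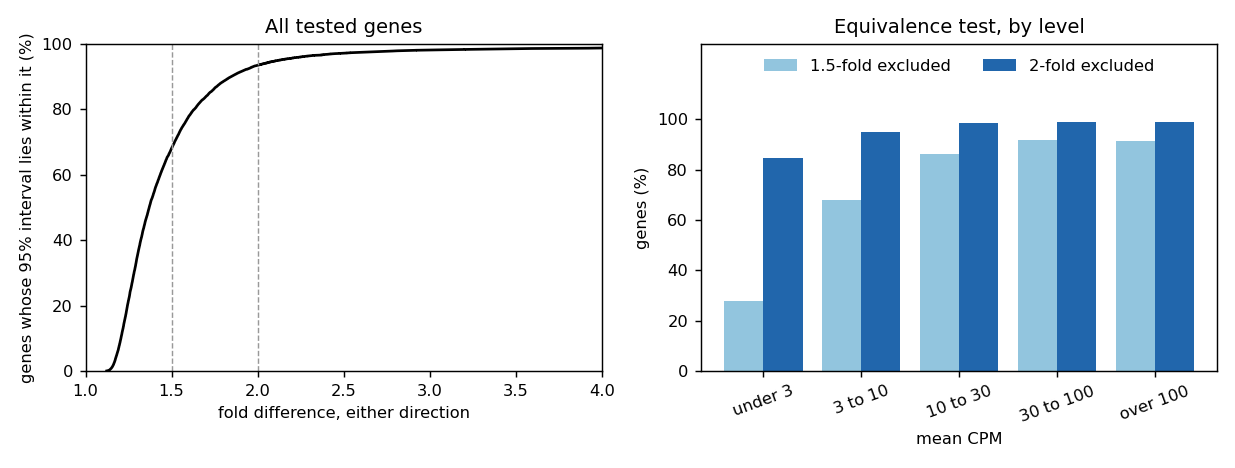
Left, the share of the 14229 tested genes (%) whose 95% interval lies within a given fold difference in either direction, with dashed lines at 1.5-fold (68.1%) and 2-fold (93.5%). Right, the share of genes (%) with a 1.5-fold or 2-fold difference excluded by the equivalence test in 5 ranges of mean CPM, which rises from 27.8% and 84.6% under 3 CPM to 91.6% and 99.1% over 100 CPM.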

How the data were processed

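RNA sequencing measured gene expression in tibialis anterior, with 4 DMD-Null and 4 mdx libraries grouped by the genotype in the labels. Per the labels, RNA had an integrity number above 7 and went into stranded poly(A) libraries. Named in the submitters' processing notes are HISAT2 2.0, StringTie 1.3.4, cutadapt 1.10 and FastQC 0.10.1. The deposited table gives whole-number counts per gene, not normalized, and beside them FPKM values, in which the authors divided by transcript length and depth. The counting step and its use of strand are not given in the sources used, so paralogs and overlapping genes are uncertain. Positions are read as GRCm38, although the notes name GRCm39: 99.70% of 30155 matched genes have a GRCm38 start or end.

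From the counts of 30239 genes, those with at least 1 CPM in at least 4 of the 8 libraries (14229) were tested with edgeR 4.0.16 (quasi-likelihood, TMM factors, R 4.3.3), with Benjamini-Hochberg adjustment over all of them. Intervals and equivalence tests against 1.5-fold and 2-fold used limma 3.58.1 (voom). DESeq2 1.42.0 was an alternative. The code was checked on simulated counts. The 41 gene lists and the comparison itself were chosen with earlier results of these data known, and no list was tested as a set. The rule for naming genes took Dmd and Utrn, the called genes without overlap, the 5 smallest p where fewer than 5 were called in a direction, the 2 members with the smallest p and the one with the highest CPM of each of 8 lead lists, 1 member of each other list, and the neighbours of Dmd. Not every gene that the rule picked is described. Among those left out, Chrna1, Cxcl16, Igfbp3, Tcf7l2 and Ngfr were lower in DMD-Null without overlap, and none of them was called. Other named genes were chosen after their values were seen. The SE of an edgeR fold change is its size over the square root of F. The fits without DMD-Null 2 and DMD-Null 4, and the sum of Capn3 with AL935121, were added after the data were seen. Some genes are not reported here.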

Additional observations from a re-analysis of the deposited data

Results flagged for a closer look

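Of 158 sets of 4 libraries examined for a single library far from the other 3, 5 were flagged, by a rule with a nominal rate of 1 in 20. The sets come from the same libraries and are not independent, so the number flagged cannot be set against that rate. In DMD-Null, Scgb1a1 was 0.120 CPM in DMD-Null 3 and 0 in the other 3 libraries. Plec, which encodes the cytoskeletal linker plectin, reached 979.8 CPM in DMD-Null 4, while the other 3 had 543.9 to 601.8. Des, the muscle intermediate filament desmin, was 6297 CPM in the same library against 4101 to 4456. Mrln was 10.4 CPM in DMD-Null 3 against 4.69 to 4.95. In mdx, Ctsd, the lysosomal protease cathepsin D, was 1190 CPM in mdx 3 against 1020 to 1044.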

How the results depend on the processing

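The 7 calls became 5 with no filter on low counts, 4 with an FPKM filter, 1 with a mean CPM of at least 5 (Dmd), 12 with DESeq2, 4 with all 12 libraries and 3 with the replicate block, and 5 to 9 with 1 library left out. Genes higher in DMD-Null numbered 0 with no filter, with a mean CPM of at least 5, with all 12 libraries and with the replicate block, 4 with DESeq2, and 0 to 2 with 1 library left out. Genes lower numbered 3 with the FPKM filter, 1 with a mean CPM of at least 5 and 3 with the replicate block. The filters change which genes are tested, and the block uses up degrees of freedom. Why the calls changed was not tested for any setting. The labels do not say whether same-numbered samples were paired. Correlations of deviations from the group mean were -0.169 to 0.098 for same-numbered libraries and -0.144 to 0.276 for the others. These few values cannot decide whether samples were paired. Under the replicate block Capn3 had an adjusted p of 0.184, mt-Tg 0.130, and Sftpb and Sftpa1 0.126 each.

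A 1.5-fold difference was excluded for 4840 genes with all 12 libraries, and for 9043 to 10936 with 1 library left out. For 2-fold it was 12982 of 14229 with all 12 libraries, and among the filters 10292 of 10458 with a mean CPM of at least 5, 10803 of 11124 with the FPKM filter and 14061 of 29063 (48.4%) with none. The mdx to DMD-Null ratio of Dmd level was 7.20 to 9.52 with 1 library left out and 7.02 without DMD-Null 2 and DMD-Null 4, where the smallest exact p is 0.0571 and 0.133.

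Genes near 0 changed sign in 45 alternative values. Without DMD-Null 2 and DMD-Null 4, log2 fold changes were -0.039 for Plec, -0.015 for Des, 0.12 for Itgb1, -0.049 for Carm1, 0.20 for Tmem47, 0.026 for Gm5940 and 0.19 for Tab3. Itgb1 was 0.013 with library totals alone, 0.050 with GC-corrected offsets and 0.0024 with all 12 libraries, and Gk was 0.0078 with library totals alone and 0.050 with GC-corrected offsets. Actr3-ps was -0.0069 with voom, -0.0010 with log2(FPKM + 0.1) and -0.0089 with the replicate block. With 1 library left out, the ranges were -0.055 to 0.29 for Plec, -0.0054 to 0.23 for Des, -0.080 to 0.098 for Itgb1, -0.067 to 0.12 for Carm1, -0.16 to 0.018 for Col3a1, -0.13 to 0.011 for Ctsd, -0.035 to 0.11 for Atp5b, -0.15 to 0.058 for Acadvl. They were -0.35 to 0.064 for Nnt, -0.17 to 0.16 for Actr3-ps, -0.30 to 0.11 for Tmem47, -0.16 to 0.059 for Gm5940, -0.18 to 0.13 for Tab3 and -0.16 to 0.11 for Gk. Dmd and Scgb1a1 were called in every setting that tested them except Dmd with all 12 libraries (adjusted p = 0.237).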

Other observations

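Chaperone genes mostly had values above 0, as did ribosomal protein genes (39 of 45), with none called by edgeR. Of 15 heat shock genes 14 had a log2 fold change above 0, against 48.2% of all genes, and the median of the heat shock list was 0.16, or 0.05 to 0.22 when each library was left out in turn. Hspb7, a small heat shock protein of striated muscle, was 812, 545, 548 and 937 CPM in DMD-Null 1 to 4 and 443, 320, 573 and 592 in mdx 1 to 4 (log2 fold change 0.56, adjusted p = 1). DMD-Null 1 and 4 were the high libraries, as they were for the slow myosin light chain Myl3. For all 17 tested Notch pathway genes, all 16 Wnt pathway genes, all 20 interferon genes and all 15 cell cycle genes a 2-fold difference was excluded. Cdkn1a, the p53 target p21, was 59.96 ± 12.9 CPM in DMD-Null and 63.7 ± 9.29 in mdx, with an interval that ended at 1.37-fold.

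A few genes differed between mdx 1 and 2 on one side and mdx 3 and 4 on the other. Npas2, a transcription factor of the circadian clock, was 0.778 and 0.851 CPM in mdx 1 and 2, 4.90 and 4.18 in mdx 3 and 4, and 0.733 to 1.63 in DMD-Null. The immediate early gene Fos was 6.9 and 8.41 CPM in mdx 1 and 2, 21.9 and 26.9 in mdx 3 and 4, and 8.87 to 12.9 in DMD-Null. Pfkfb3 was likewise higher in mdx 3 and 4 than in mdx 1 and 2. Bhlhe41, a repressor of the clock, ran the other way, at 67.6 and 81.2 CPM in mdx 1 and 2 and 55.7 and 54.1 in mdx 3 and 4. These genes were chosen after their values were seen, and no difference among mdx libraries was tested.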
